A study of Mus musculus with 12 samples.

Results

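Disease-associated microglia genes were followed on 12 one-colour microarrays of mouse brain, each hybridised with RNA pooled from 3 animals of 1 model of Alzheimer's disease (AD) or aging. The 10 genes were fixed by name: Trem2, Tyrobp, Cst7, Itgax, Clec7a, Lpl, Spp1, Gpnmb, Axl, and Cd9. A gene counted as measured when a probe accession matched its symbol in the RefSeq gene table, which held for 9 of the 10 genes and for 20882 genes in all. No probe matched Clec7a, the beta-glucan receptor dectin-1, and no value is given for it. Of the 9 genes, 7 were well above background on all 12 arrays by the flag of the scanner software, Itgax on 10, and Cst7 on 5.

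Microglia are the resident macrophages of the brain. Around amyloid deposits they can leave their resting state and switch on a program known as disease-associated microglia, in which genes of phagocytosis, lysosomes, and lipid handling rise and several genes of the resting state fall. The receptor TREM2 binds lipids and lipoproteins at the cell surface and has almost no signalling tail of its own. It signals through the adaptor TYROBP (DAP12), whose phosphorylated tail recruits the kinase SYK, and the later stage of the program is known to need TREM2.

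The aged mice were C57BL/6 of 1.5, 4, 17, and 22 months, and their prefrontal cortex was taken. The transgenic mice, labelled C57BL/6 (the methods give C57BL/6N as the background of NCSTN and 5×FAD), gave hippocampus and carried a mutated human NCSTN gene (10 months), the wild-type human MAPT gene (12 months), or, in 5×FAD (6 months), transgenes that include mutated human APP and are driven by the Thy1 promoter in neurons. The promoters of the NCSTN and MAPT transgenes are not given in the sources used here. The third set was hippocampus of ICR mice injected at 7 weeks. In 4 groups the cerebral ventricles were injected, with aggregated amyloid-β peptide (Aβ) at 5 μM or 10 μM or with streptozotocin, a glucose analogue toxic to insulin-producing cells, at 2.5 mg/kg or 3 mg/kg, and the brains were examined 14 days later. The last received 1 mg/kg scopolamine, a blocker of muscarinic acetylcholine receptors, into the peritoneum 30 min before dissection. Untreated ICR mice and nontransgenic littermates were not analysed here, so each model was set against other models of the same strain and region.

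Because each model had 1 array, no spread between animals could be computed. Arrays set together on a side differed in age, dose, or agent and were not replicates, and no test was run. A gene was called higher or lower when the mean log2 signals of both sides differed by 1 or more (2-fold), the arrays of both sides did not overlap, and the brighter side was well above background throughout. An array on which a gene was not well above background was set at the lowest signal well above background on that array, or at the gene's own signal where that was higher. The share of all genes called in the same comparison is given beside the first count. Errors are those of the scanner software for a spot and cover technical error on 1 array only. They were 0.14 on the log2 scale for bright probes and up to 1.44 for Cst7 where it was dim.

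Between 63.5% and 75.8% of the probes of an array were well above background, lowest on the array of 10 μM Aβ and highest on that of 5×FAD, and no spot was saturated. The 3 transgenic arrays went against the methods, which describe these mice as male. Xist, transcribed from the inactive X chromosome, had a mean log2 signal of 9.41 on them and was not well above background on the other 9 arrays, making it at least 35.2-fold higher. The Y-linked genes Ddx3y and Eif2s3y were at least 175-fold and 103-fold lower on these arrays than on the other 9. All 3 transgenic arrays were alike in this, so comparisons among them do not set 1 sex against the other.

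The promoters of 8 of the 10 genes were found in the RefSeq table of GRCm38.p6. They are shown for Trem2, Itgax, and Cst7, the 3 genes of the set with the largest increases in 5×FAD among those the table covers. Each line holds the 250 bases before the transcription start, read 5′ to 3′ on the strand of the gene. Capitals mark matches to GAGGAA, the core of sites for the myeloid factor PU.1, and to TGANTCA, the site of AP-1, on either strand. The stretches are chr17:48346151-48346400 for Trem2, chr7:128129300-128129549 for Itgax, and chr2:150570165-150570414 for Cst7, all on the plus strand.
Trem2: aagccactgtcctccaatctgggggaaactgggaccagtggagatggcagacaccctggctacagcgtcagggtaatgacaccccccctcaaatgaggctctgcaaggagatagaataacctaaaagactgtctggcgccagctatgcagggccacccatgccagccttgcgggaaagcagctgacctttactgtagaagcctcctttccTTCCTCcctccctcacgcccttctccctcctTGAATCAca
Itgax: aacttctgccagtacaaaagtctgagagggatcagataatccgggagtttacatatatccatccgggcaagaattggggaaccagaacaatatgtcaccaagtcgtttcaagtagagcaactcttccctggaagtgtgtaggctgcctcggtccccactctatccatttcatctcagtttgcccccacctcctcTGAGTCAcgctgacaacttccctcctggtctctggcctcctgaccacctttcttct
Cst7: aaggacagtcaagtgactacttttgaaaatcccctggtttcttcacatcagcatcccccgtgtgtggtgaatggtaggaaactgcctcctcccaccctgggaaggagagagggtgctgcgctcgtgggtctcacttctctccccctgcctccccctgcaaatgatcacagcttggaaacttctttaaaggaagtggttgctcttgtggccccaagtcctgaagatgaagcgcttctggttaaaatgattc
In Trem2, the PU.1 core lay on the opposite strand with its first printed base 40 bases before the start, and the AP-1 match began 9 bases before the start, without overlap. In Itgax, the AP-1 match began 56 bases before the start. The Cst7 stretch held neither. GAGGAA was found in promoters of 4 of the 8 genes (Trem2, Clec7a, Spp1, and Axl) and in 23.3% of all 32851 promoters of the same length. TGANTCA was found in 2 of the 8 (Trem2 and Itgax) and in 6.75% of all promoters. CACGTG, the E-box read by MITF and TFEB, was found in 0 of the 8 and in 6.02% of all. The counts of the 8 genes are by gene, over 10 promoters, whereas the shares of all are by promoter. These are matches of letters in a short window, and binding was not measured.

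In the hippocampus of 5×FAD mice, 6 of the 9 genes were higher than in both the NCSTN and the MAPT mice: Cst7, Itgax, Trem2, Tyrobp, Cd9, and Lpl. No gene of the 9 was lower. Among all 16876 genes tested in this comparison, 5.78% were higher and 3.98% were lower. The median log2 difference of the 9 genes was 1.66, against -0.040 for all genes. Counting only the NCSTN array as reference, the same 6 genes were higher, and against the MAPT array alone Axl joined them. The mice also differed in age (6, 10, and 12 months), which cannot be told apart from the transgene. In RNA of whole tissue, more cells of a type cannot be told apart from more RNA per cell.

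**Figure D1:**
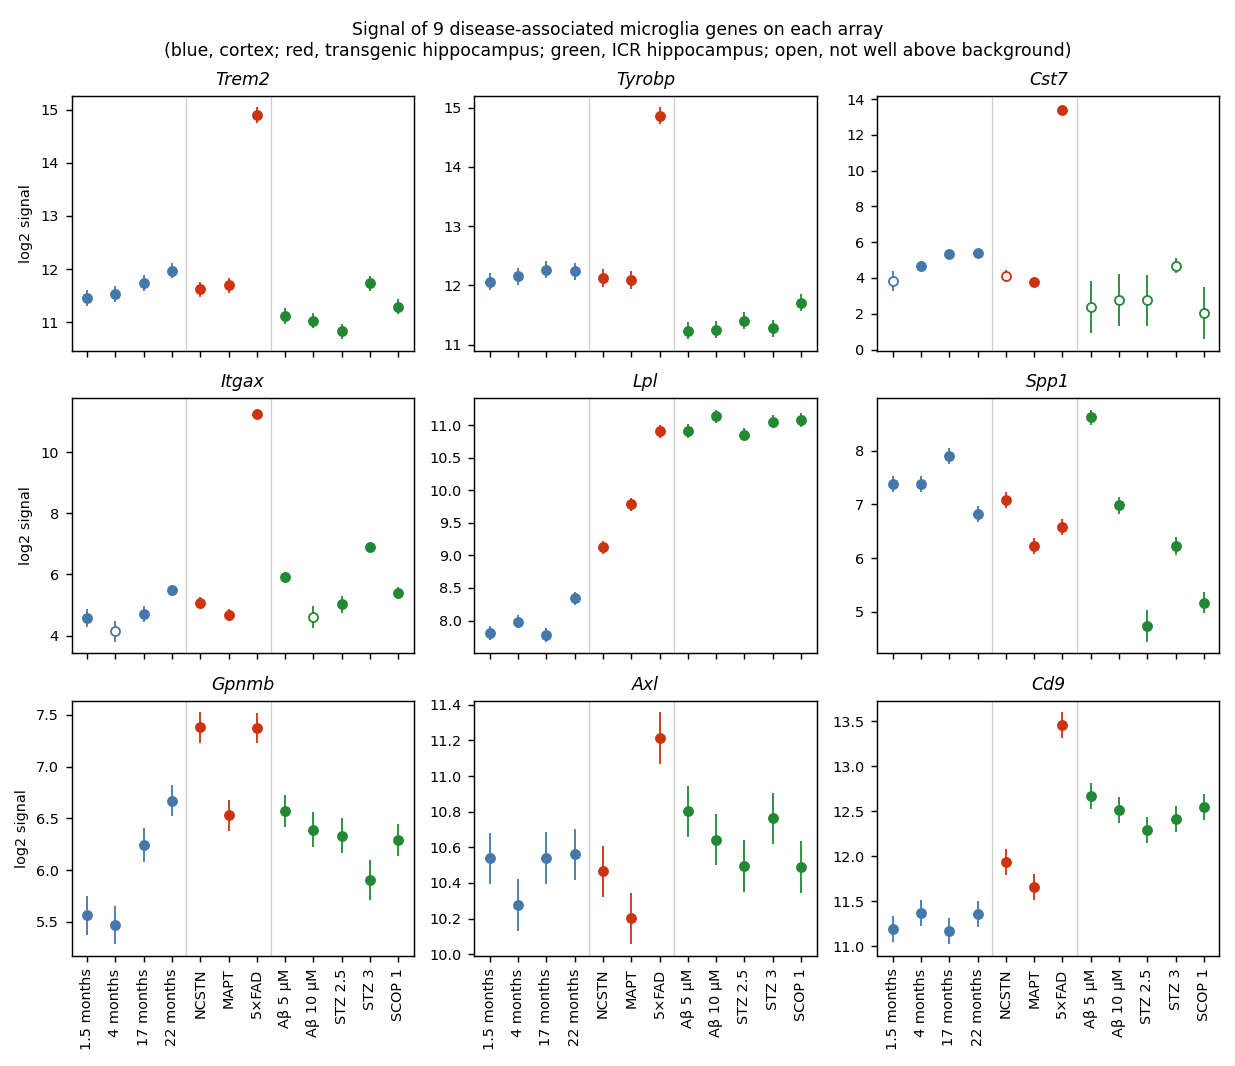
Quantile-normalised log2 signal (vertical axis, a scale of its own in each panel) of the 9 measured genes on each of the 12 arrays (horizontal axis). Each point is 1 array with the error of the scanner software, and open points were not well above background. Trem2, Tyrobp, Cst7, Itgax, Axl, and Cd9 each stood highest on the 5×FAD array, with log2 signals of 14.90, 14.86, 13.41, 11.25, 11.21, and 13.46.

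The receptor and its adaptor rose together. The log2 signal of Trem2 was 11.62 on the NCSTN array, 11.69 on the MAPT array, and 14.90 on the 5×FAD array. Both reference arrays lay within 0.074 of each other, and 5×FAD stood apart from them by 3.24 ± 0.18 (scanner error), or 9.47-fold. For Tyrobp, the adaptor that TREM2 shares with several other myeloid receptors, the log2 signals were 12.13, 12.09, and 14.86 in the same order. The difference was 2.75 ± 0.18, or 6.74-fold. In the order of all 16876 log2 differences from the highest, Trem2 ranked 47 and Tyrobp 88.

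The largest differences were those of Cst7 and Itgax, which were dim on both reference arrays. Cst7 encodes cystatin F, an inhibitor of lysosomal cysteine proteases such as cathepsins. Its log2 signal was 3.80 on the MAPT array, 4.13 and not well above background on the NCSTN array, and 13.41 on the 5×FAD array. The difference of 9.44 ± 0.26 (697-fold), with 1 of the 2 reference arrays measured, ranked 1 of all genes tested, and against the MAPT array alone it was 9.61. Itgax encodes the integrin αX (CD11c), a subunit of complement receptor 4 that marks the microglia of amyloid plaques and dendritic cells elsewhere. Its log2 signals were 5.07 (NCSTN), 4.67 (MAPT), and 11.25 (5×FAD), a difference of 6.38 ± 0.20 (83.2-fold) that ranked 5. Folds over such dim references depend on how background is treated. With normexp background correction they were 85.7-fold for Cst7 and 21.6-fold for Itgax, still higher on the 5×FAD array.

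Cd9 and Lpl were higher by less. Cd9 encodes a tetraspanin of the cell surface and of extracellular vesicles, found on many cells including oligodendrocytes. Its log2 signals were 11.94 (NCSTN), 11.66 (MAPT), and 13.46 (5×FAD), and the difference was 1.66 ± 0.18 (3.15-fold), rank 386. Lpl encodes lipoprotein lipase, which releases fatty acids from lipoprotein triglycerides and is made by neurons as well as by microglia. Its log2 signals, averaged over 2 probes, were 9.12 (NCSTN), 9.78 (MAPT), and 10.90 (5×FAD). The difference was 1.45 ± 0.13 (2.74-fold), rank 553. For Lpl the reference arrays themselves differed by 0.66, so its difference was 1.78 against NCSTN and 1.12 against MAPT. Both Lpl probes gave the same order of the 3 arrays, the brighter with log2 signals of 10.19, 10.90, and 12.11 and the dimmer with 8.05, 8.67, and 9.70.

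Axl, Gpnmb, and Spp1 were not called. AXL is a receptor tyrosine kinase that recognises phosphatidylserine on dying cells through its ligand GAS6. The log2 signals of Axl were 10.46 (NCSTN), 10.20 (MAPT), and 11.21 (5×FAD), a difference of 0.88 ± 0.18 (1.84-fold). Gpnmb, which encodes a lysosomal and surface glycoprotein of phagocytes, had 7.38 (NCSTN), 6.53 (MAPT), and 7.38 (5×FAD), so the 5×FAD array equalled one reference and exceeded the other. Spp1 encodes osteopontin, a secreted phosphoprotein that binds integrins and CD44. Its log2 signals were 7.08, 6.23, and 6.57, with 5×FAD between both references and a difference of -0.080 ± 0.18. In rank from the highest, Axl was 1516, Gpnmb 3568, and Spp1 9043 of 16876. The program was therefore uneven on this array, with differences from -0.080 for Spp1 to 9.44 for Cst7.

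The other listed genes of the program behaved alike in number. Of 29 other disease-associated microglia genes measured, 18 were higher and 0 lower in 5×FAD, with a median log2 difference of 1.55. The highest were Ctse, Ccl3, Ccl4, and Lilrb4a. Ctse (cathepsin E, a protease) was at least 54.2-fold higher, since it was not well above background on either reference array. Ccl3 and Ccl4 (chemokines that attract immune cells) had 6.41 and 6.30, and Lilrb4a (an inhibitory receptor) had 4.77. At the other end, Cadm1 (an adhesion molecule) had -0.92 and Serpine2 (a serine protease inhibitor) -0.16, neither called. Apoe, the main apolipoprotein of the brain and made in large part by astrocytes, had 0.51.

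Genes of the TREM2 signalling route were measured for 12 of 12 listed, and 9 were higher and 0 lower, with a median of 1.60. Hcst (DAP10, the second adaptor of TREM2) had a log2 difference of 2.48, Vav1 (a guanine nucleotide exchange factor) 2.09, Ptpn6 (the phosphatase SHP-1) 2.0, and Blnk (a scaffold of SYK signalling) 1.90. Syk itself, the kinase docked by TYROBP, was higher by 1.07, and Plcg2, the phospholipase downstream of it, by 1.55. Adam10, a protease that sheds TREM2 from the surface, had -0.013, and Card9, an adaptor downstream of SYK, had -0.72, neither called. Syk, Plcg2, and Apoe were named for their place in the route or program, after their values were seen.

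Most markers of resting microglia had differences above 0. Of 12 homeostatic genes, 11 had a difference above 0, and 4 were called higher and 1 lower. Among the higher ones were Cx3cr1 (the fractalkine receptor, 1.92), Gpr34 (a lysophospholipid receptor, 1.42), and Csf1r (the receptor for colony-stimulating factor, 1.31). The lower one was Siglech, a sialic acid-binding lectin, with log2 signals of 12.77 (NCSTN), 12.89 (MAPT), and 10.70 (5×FAD), a difference of -2.14. P2ry12, the purinergic receptor used to recognise resting microglia, had 0.47 and Tmem119 0.57, neither called (both named after their values were seen). The median of the 12 was 0.76, below that of the 9 measured genes of the program.

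Of 9 genes shared by microglia and other macrophages, 7 were higher and 0 lower, with a median of 1.37, or 1.25 with genes not well above background at their bound. C1qa (complement) was higher by 2.14, Fcer1g (an immunoreceptor adaptor) by 2.02, and Ptprc (CD45) by 1.73. Of the 6 called genes, Cst7, Itgax, Trem2, and Tyrobp had larger differences than any gene of this list. Those of Cd9 (1.66) and Lpl (1.45) lay above its median but below C1qa, Fcer1g, and Ptprc. Those of Axl, Gpnmb, and Spp1 lay below the median. The 6 were called by the size of their difference, so this order was partly set by the threshold. Whether the number of microglia differed between these hippocampi was not measured.

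**Figure D2:**
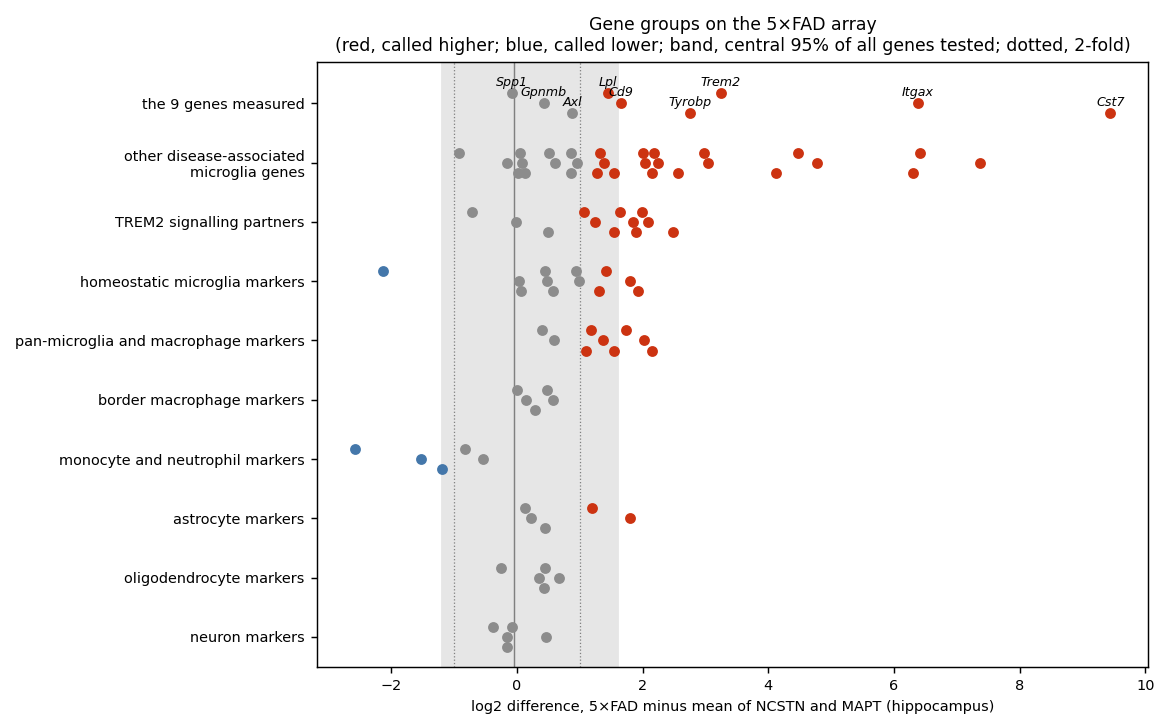
Log2 difference of each gene between the 5×FAD array and the mean of the NCSTN and MAPT arrays (horizontal axis), by gene list (vertical axis, with jitter). Red points were called higher and blue points lower, the grey band is the central 95% of all 16876 genes tested (-1.19 to 1.60), the solid line their median, and the dotted lines 2-fold. Of the 9 measured genes of the program 6 lie at 1.45 or above, whereas the markers of border macrophages, oligodendrocytes, and neurons lie inside the 2-fold lines.

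Markers of other cells moved as follows in the same comparison. For border macrophages (those of the meninges and vessels), 0 of 4 markers tested were called, with a median of 0.38, and Cd163 was well above background on 0 of the 12 arrays. For monocytes and neutrophils, 0 of 4 were higher and 3 were lower, namely S100a9 (-2.58), S100a8 (-1.52), and Chil3 (-1.19). Of the 5 astrocyte markers, Gfap (1.80) and Aqp4 (1.19) were higher. Of oligodendrocyte and neuron markers 0 of 5 each were called, with medians of 0.43 and -0.16, and of 4 endothelial markers Cldn5 was lower (-1.02). Markers of the choroid plexus and of meningeal fibroblasts were not called (0 of 4 each). The part of astrocytes in the result was not tested.

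The genes whose pattern over the 12 arrays was most like that of a member were sought among 14015 others well above background on every array. Likeness was the root mean square of the differences in log2 deviation from the mean of the same set. Nearest to Trem2 were Slc11a1 (0.12), Naip2 (0.19), Hvcn1 (0.19), Cd52 (0.19), and Slc15a3 (0.20). Of the members compared, Tyrobp came nearest, at rank 13 (0.27), and Gpnmb (rank 4461) and Spp1 (rank 13922) farthest. Cst7 and Itgax were not well above background on every array and were not compared. Nearest to Tyrobp were Lpcat2 (0.15), Alox5 (0.15), Ctss (0.16), Pyroxd2 (0.17), and C3 (0.17). Nearest to Cd9 were Rab34 (0.11), Cc2d1b (0.12), Top3a (0.13), Arpc1b (0.13), and Ssh3 (0.13). Trem2, Tyrobp, and Cd9 deviated most from the mean of their set on the 5×FAD array, which thus weighs heavily in this order.

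Between the NCSTN and MAPT arrays, 0 of the 9 genes were higher and 0 lower, with 1.75% of all 16495 genes higher and 0.928% lower. The median log2 difference of the 9 was 0.28, against 0.019 for all genes. The largest were those of Spp1 and Gpnmb, each 0.85 higher with NCSTN, and of Lpl, 0.66 lower with NCSTN. Ncstn itself had a log2 signal of 6.00 on the NCSTN array and 4.06 on the MAPT array, a difference of 1.94. Mapt was 14.64 and 14.71. Ncstn was also called lower with 3 than with 2.5 mg/kg streptozotocin (-1.51 by its own signal), in ICR mice without a transgene. Whether the probes read the human transgenes was not tested. Of the other lists, Gfap (1.03) and Lyve1 (1.30, a border macrophage marker) were higher and Ccl4 was lower (-1.21) with NCSTN.

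In the aging cortex, no gene of the 9 was called between the old (17 and 22 months) and the young (1.5 and 4 months) arrays. Of all 15172 genes tested, 0.461% were higher and 0.218% lower with age. The median of the 9 genes was 0.16, against 0.016 for all genes, and 7 of the 9 differences were above 0. Cst7 had log2 signals of 3.84 (not well above background), 4.67, 5.32, and 5.39 at 1.5, 4, 17, and 22 months. It was thus higher at each greater age, though its step from 17 to 22 months (0.072 ± 0.31) lay within the scanner error. Its step from 1.5 to 4 months was 0.84 ± 0.63, or 0.47 with the youngest array at its bound. Its difference between old and young arrays was 1.10 ± 0.35, or 0.92 with that array at its bound.

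Gpnmb and Itgax came next. Gpnmb had 5.56, 5.47, 6.24, and 6.67, so both old arrays lay above both young ones, and the difference was 0.94 ± 0.17 (1.92-fold). Itgax had 4.56, 4.15 (not well above background), 4.71, and 5.48, a difference of 0.74 ± 0.28, and the 1.5- and 17-month arrays were 0.15 apart. Without the 17-month array both genes were called higher (1.12 for Itgax and 1.16 for Gpnmb, with 1.1% of all genes higher), and without the 4-month array Cst7 was (at least 1.15 higher, with the only young array at its bound, and 1.11% of all genes higher).

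Trem2 also stood in the order of age, by small steps. Its log2 signals were 11.45, 11.53, 11.74, and 11.97, and the old arrays exceeded the young ones by 0.36 ± 0.14 (1.29-fold). The step from 1.5 to 4 months (0.075 ± 0.20) lay within the scanner error. Tyrobp had 12.06, 12.15, 12.27, and 12.24, a difference of 0.14 ± 0.14 that did not exceed the scanner error. Lpl had 7.81, 7.98, 7.78, and 8.34, with the oldest array apart from the other 3. Axl (10.54, 10.28, 10.54, and 10.56) and Cd9 (11.20, 11.37, 11.17, and 11.36) showed no order by age, and their differences were 0.14 and -0.020.

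**Figure D3:**
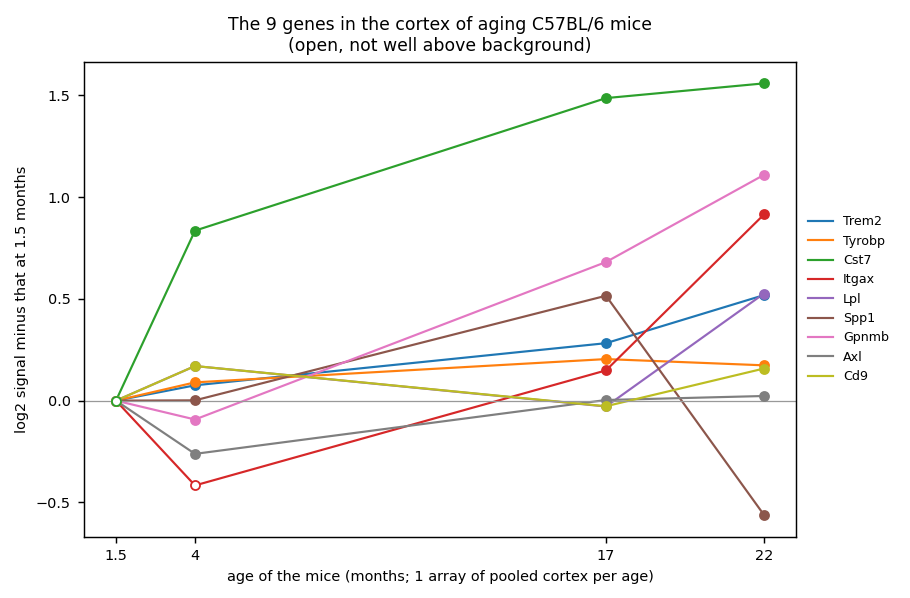
Log2 signal of the 9 genes in prefrontal cortex minus that at 1.5 months (vertical axis) against the age of the mice in months (horizontal axis), 1 array per age. Open points were not well above background. Cst7, Gpnmb, and Itgax lie highest at 22 months, followed by Lpl (0.53) and Trem2 (0.52), and Spp1 falls from 7.90 at 17 months to 6.82 at 22 months.

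Between single ages, 0 of the 9 genes were called from 1.5 to 4 months (1.61% of all genes higher and 1.07% lower). In that step S100a8 (3.41), S100a9 (3.31), the oligodendrocyte markers Mobp and Cnp, and the other program gene Ch25h (1.26) were higher. Spi1 and the meningeal fibroblast marker Col1a1 (-1.08) were lower. From 17 to 22 months 0 of the 9 genes were higher (1.36% of all genes) and 1 was lower (1.32%), namely Spp1. Spp1 had log2 signals of 7.38, 7.38, 7.90, and 6.82 from the youngest to the oldest array, and the last step was -1.08 ± 0.21. This call was lost with normexp background correction (-0.65). Of the other lists, Ch25h was lower in the same step (-1.82) and Mobp higher (1.30). The mean log2 signal of 4 choroid plexus markers was 5.31, 5.48, 9.86, and 6.30 at these ages, and Ttr, Kl, and Clic6 of them were called lower from 17 to 22 months (medians of the 4, -2.32). Border macrophage markers had a median of -0.36 in that step, with Lyve1 at least 2.07-fold lower, and meningeal fibroblast markers one of -0.67, with Igf2 lower (-1.35). S100a8 (-2.47) and S100a9 (-2.97), made by neutrophils and monocytes, were lower. The part of these cells in the Spp1 values was not tested.

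Choroid plexus markers were called in the same comparison, with Ttr (a carrier of thyroid hormone) 5.62, Clic6 2.60, and Kl 1.58 higher in the old cortex. Of 28 other disease-associated microglia genes tested 0 were called between old and young cortex, with a median of 0.0019, and of 12 homeostatic genes 0, with a median of 0.093. The median of 8 genes shared by microglia and macrophages was 0.068. Spi1, which encodes PU.1, was not well above background on the 4- and 22-month arrays and was at least 5.53-fold lower at 22 than at 17 months, while Csf1r and the other 11 homeostatic genes had no call.

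In the hippocampus of injected ICR mice, Cst7 was not well above background on any of the 5 arrays, and 8 of the 9 genes could be compared. Between the Aβ and streptozotocin arrays, 1 gene, Spp1, was higher and 0 lower. Of all 14923 genes tested, 3.35% were higher and 0.375% lower with Aβ. The log2 signals of Spp1 were 8.62 (Aβ 5 μM), 6.98 (Aβ 10 μM), 4.74 (streptozotocin 2.5 mg/kg), 6.22 (streptozotocin 3 mg/kg), and 5.17 (scopolamine). Both Aβ arrays lay above both streptozotocin arrays, by 2.32 ± 0.20 (4.98-fold). The difference remained above 2-fold with normexp background correction (2.56-fold) and without each array in turn, with log2 differences of 1.50 without 5 μM Aβ, 3.14 without 10 μM Aβ, 1.58 without 2.5 mg/kg, and 3.06 without 3 mg/kg streptozotocin.

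Markers of meningeal fibroblasts and border macrophages moved with Spp1. The mean log2 signal of 4 meningeal fibroblast markers was 11.81, 11.45, 8.54, 10.07, and 9.93 in the order above, and 4 of 4 were higher with Aβ than with streptozotocin (median 2.21). That of the border macrophage markers was 6.31, 6.07, 4.18, 5.38, and 5.12, and Mrc1 (1.65), Pf4 (1.75), and Lyve1 (at least 2.98-fold) were higher. On the 5 arrays, both lists and Spp1 had the same order, lowest with 2.5 mg/kg streptozotocin and highest with 5 μM Aβ, as seen after the values were known.

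The choroid plexus markers had means of 13.10, 12.63, 8.10, 8.56, and 13.37, with 4 of 4 higher with Aβ than with streptozotocin (median 4.68), and they were highest with scopolamine, where Spp1 was low. S100a8 (1.23) and S100a9 (1.18) were higher too. The medians of homeostatic genes and of genes shared by microglia and macrophages were -0.41 and -0.32, with 0 calls in either list. Of 28 other disease-associated microglia genes tested, 4 were higher with Aβ, namely Lgals3 (galectin-3, 1.28), Lilrb4a (2.09), Ch25h (cholesterol 25-hydroxylase, 1.83), and Lyz2 (lysozyme, 1.58), the last 3 well above background on only some streptozotocin arrays. Of these 28, Ccl3 was lower, at least 4.22-fold, and the median was 0.26, or 0.19 with genes not well above background at their bound. The part of meninges, border macrophages, and choroid plexus in the Spp1 values was not tested.

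**Figure D4:**
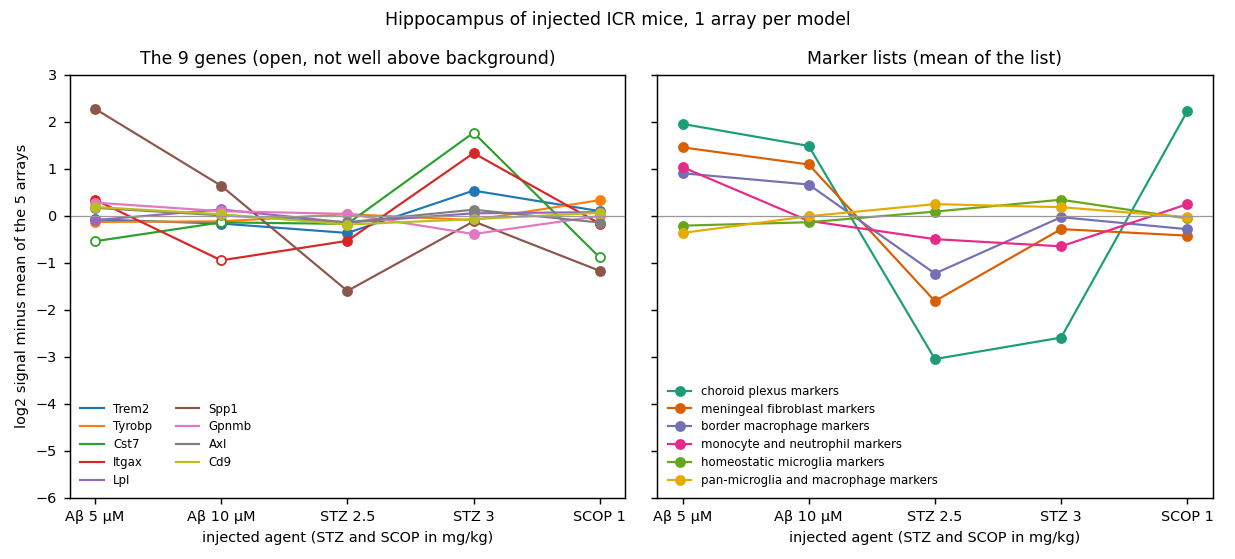
Log2 signal minus the mean of the 5 arrays (vertical axis) in the hippocampus of ICR mice, by injected agent (horizontal axis), for the 9 genes (left) and for the mean of each marker list (right). Open points were not well above background. Spp1 (8.62 with 5 μM Aβ and 4.74 with 2.5 mg/kg streptozotocin), the meningeal fibroblast list (11.81 and 8.54), and the border macrophage list (6.31 and 4.18) share their highest and lowest arrays.

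Trem2, Tyrobp, Axl, Cd9, Lpl, and Gpnmb were not called in any comparison of the ICR arrays. The log2 signals of Trem2 were 11.12 (Aβ 5 μM), 11.03 (Aβ 10 μM), 10.83 (streptozotocin 2.5 mg/kg), 11.73 (streptozotocin 3 mg/kg), and 11.29 (scopolamine), so the 2 streptozotocin doses were its extremes and both Aβ arrays lay between them. Its range of 0.90 was the widest of these 6 genes, and the difference between the doses lay above the central 95% of genes measured on both arrays (-0.57 to 0.75). Those of Tyrobp, in the same order, were 11.24, 11.25, 11.41, 11.28, and 11.71, highest with scopolamine.

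Lpl, Axl, and Cd9 had ranges of 0.28 to 0.37, narrower than that of Tyrobp (0.47), and Gpnmb had one of 0.67. The log2 signals of Lpl were 10.91, 11.13, 10.85, 11.05, and 11.08. Cd9 had 12.67, 12.51, 12.30, 12.41, and 12.55. Axl had 10.80, 10.64, 10.50, 10.76, and 10.49, and Gpnmb 6.57, 6.39, 6.33, 5.91, and 6.29. Lpl and Cd9 were higher on these arrays than in the cortex of aged mice, where they reached 8.34 and 11.37, but region, strain, and treatment cannot be told apart there.

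Set against scopolamine, the 4 arrays of mice injected into the ventricles had 0 of 8 genes called. Of all 15401 genes tested, 0.279% were higher and 1.3% lower. Spp1 had a log2 difference of 1.47, but the 2.5 mg/kg streptozotocin array lay below scopolamine, and without that array Spp1 was called higher (2.10, with 0.993% of all genes higher). The other differences lay between -0.41 (Tyrobp) and 0.22 (Itgax). Choroid plexus markers were lower than with scopolamine (median -2.78), Folr1 and Clic6 being called.

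Itgax differed between arrays of the same agent. Its log2 signals were 5.91 (Aβ 5 μM), 4.61 (Aβ 10 μM, not well above background), 5.03 (streptozotocin 2.5 mg/kg), 6.90 (streptozotocin 3 mg/kg), and 5.40 (scopolamine). Aβ and streptozotocin arrays overlapped, with a difference of -0.70. Without the array of 5 μM Aβ (-1.35) or that of 2.5 mg/kg streptozotocin (-1.64), Itgax was called lower with Aβ, as were 0.629% and 0.897% of all genes.

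Between doses, Itgax and Spp1 moved. With 10 μM against 5 μM Aβ, 2 of 8 genes were lower and 0 higher (1.26% and 1.64% of all 15754 genes). Itgax had 5.91 with 5 μM and 4.61, not well above background, with 10 μM, and was at least 2.45-fold lower. Spp1 was lower by 1.64 on the log2 scale (3.11-fold). In this step Lilrb4a (2.10) and Ctse (at least 2.57-fold) of the other program genes were higher, S100a8 (-1.65) and S100a9 (-1.68) lower, and the pan-microglial median was 0.33. The choroid plexus marker Folr1 was lower too (-2.62).

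With 3 against 2.5 mg/kg streptozotocin, 2 of 8 genes were higher and 0 lower (1.92% and 0.942% of all 15181 genes). Itgax had 5.03 and 6.90 (1.87 ± 0.32, 3.64-fold) and Spp1 4.74 and 6.22 (1.48 ± 0.34, 2.79-fold). Trem2 was 0.90 ± 0.20 higher and was not called. Meningeal fibroblast markers were higher in 4 of 4 cases (median 1.41), as were Mrc1 (1.56) and Pf4 (1.29), whereas the pan-microglial median was 0.0046 and the homeostatic median 0.17 (Fcrls, an Fc receptor-like gene, being 2.30-fold higher). Of 28 other disease-associated microglia genes, Lyz2 (at least 2.48-fold), Ccl4 (at least 2.5-fold), and Ch25h (at least 3.06-fold) were higher and Ccl3 (-1.85) and Ctse (-1.15) lower, with a median of 0.13. The part of the meningeal and border cells in these values was not tested. Under normexp background correction and in the deposited matrix neither gene reached 2-fold in this step (Itgax 0.81 and 0.92, Spp1 0.54 and 0.60), and Itgax also fell short between the Aβ doses (-0.43 and -0.80).

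**Figure D5:**
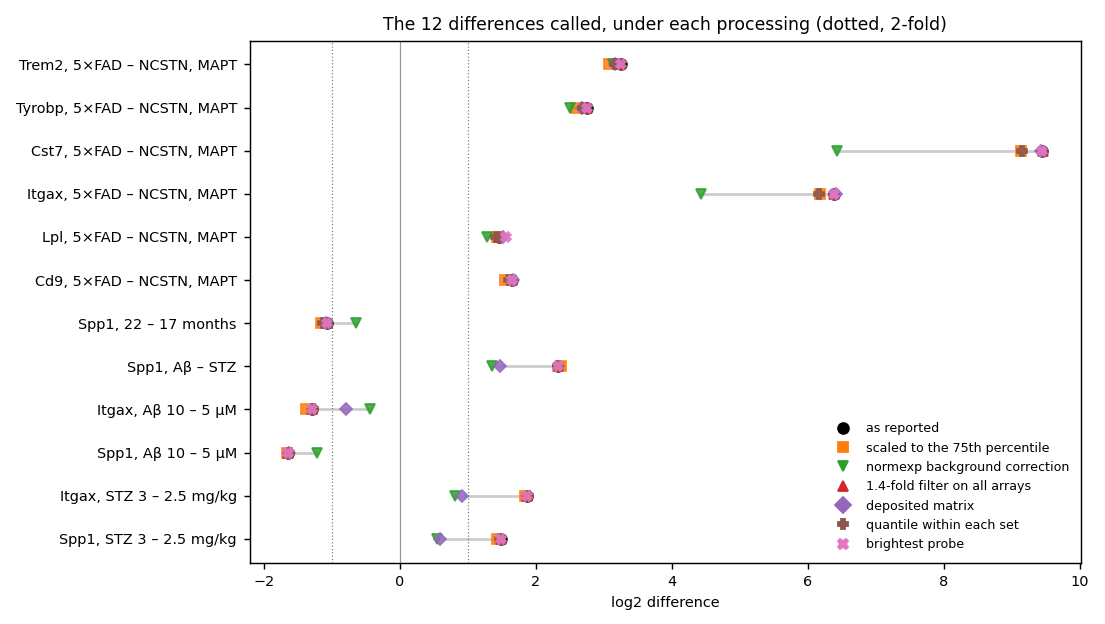
The 12 log2 differences called for the 9 genes (vertical axis, gene and comparison) under the processing of the report (black circles) and 6 alternatives (other symbols, horizontal axis in log2 units). Dotted lines mark 2-fold. The 6 differences of 5×FAD stay beyond 2-fold under each alternative (Trem2 between 3.07 and 3.24), as do those of Spp1 between Aβ and streptozotocin and between the Aβ doses. Itgax between doses, Spp1 between the streptozotocin doses, and Spp1 between 17 and 22 months do not.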

How the data were processed

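Gene expression was measured on 12 Agilent Mouse Whole Genome 44K arrays, 1 per model, each with RNA pooled from 3 animals. The authors deposited the spot intensity of each array as extracted by the Feature Extraction software, with processed signal, median signal, local background, and flags, not normalized between arrays. A deposited matrix holds further intensity values that the authors processed to an unstated scale, and it served only as an alternative.

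From the deposited intensity files, log2 of the processed signal was taken, outlier spots (110 to 234 of 43020 per array) were left out, spots of 1 probe were averaged, and arrays were quantile normalized over the 12 arrays. The methods' filter at 1.4 times the local background was an alternative. Accessions matched the RefSeq gene table (GRCm38.p6) for 69.8% of 39429 probes, and probes of 1 gene were averaged. Clec7a, Cd68, and Ly6c2 were among the listed genes with no matched probe, and a few other listed genes are not reported here. The members, marker lists, and comparisons were chosen with earlier results of these data known. Genes named from the other lists were up to 4 with the largest and up to 2 with the smallest difference in 5×FAD and any gene called elsewhere. Exceptions are stated as named after their values were seen.

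The number of arrays limits the precision, and no p-value was computed. Slide and scan were not in the files, so model and array cannot be told apart. Alternatives were scaling to the 75th percentile, normexp with an offset of 50 (on the median signal, since no mean signal was in the files), the filter, the matrix, quantile normalization within each set, the brightest probe, thresholds of 1.5-fold and 3-fold, and the gene's own signal without flags. Leaving out each array was added after the data had been seen. Simulated 4-fold changes on the 5×FAD array were recovered over 20882 genes (100% in each direction). That run checked the calculation only. It could not measure the reliability of calls, since 1 array per model holds no spread between animals. Quantile-normalized values differed from those of limma 3.58.1 in R 4.3.3 by at most 5.01e-12. Python 3.11.15 with numpy 2.4.6, pandas 2.3.3, and matplotlib 3.10.9 was used.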

Additional observations from a re-analysis of the deposited data

How the results depend on the processing

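No call of the 9 genes changed direction under any alternative. The 6 genes higher in 5×FAD stayed so under each alternative processing. At 3-fold they were 5, without Lpl (354 of all 16876 genes higher), and at 1.5-fold 7, with Axl (2239 of 16876). Without the NCSTN or the MAPT array 7 or 6 genes were higher, as were 6.35% and 5.71% of all genes. The other counts of genes called that moved by 1.5 times or more were these, with the count over all genes in parentheses. At 1.5-fold, 2 genes were higher and 1 lower between NCSTN and MAPT (740 and 515 of 16495). At the same threshold 3 were higher in old cortex (375 of 15172) and 1 from 17 to 22 months (755 of 15667). With 1.5-fold, and with own signals, 3 in place of 2 were higher between the streptozotocin doses (734 of 15181 and 890 of 20880). With each gene's own signal without flags, 1 gene was higher in old cortex (309 of 20881) and 1 higher than with scopolamine (305 of 20873). With normexp, 0 were lower from 17 to 22 months (40 of 15668) and 1 between the Aβ doses (52 of 15757). Between the streptozotocin doses 0 were higher with normexp (76 of 15181). In the deposited matrix, 1 was higher than with scopolamine (84 of 15335) and 1 lower between the Aβ doses (163 of 15693). Between the streptozotocin doses 0 were higher in the matrix (127 of 15172). At 3-fold, 0 were lower from 17 to 22 months (67 of 15667) and 1 between the Aβ doses (71 of 15754). Between the streptozotocin doses 1 was higher at 3-fold (95 of 15181). Without each array in turn, the count higher in old cortex ran from 0 to 2 (0.574% to 1.42% of all genes). The count lower with Aβ than streptozotocin ran from 0 to 1 (0.629% to 1.22%). That higher than with scopolamine ran from 0 to 1 (0.338% to 0.993%). The causes of these shifts were not tested.

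Over all genes, normexp called fewer in 5×FAD, 441 higher and 170 lower against 975 and 672, and the matrix called 1318 and 420. The share of calls that were higher in 5×FAD was 59.2%, 72.2% with normexp, and 75.8% in the matrix. With scaling to the 75th percentile, it moved from 65.3% to 41.5% between NCSTN and MAPT and from 60.1% to 46.1% between 1.5 and 4 months. In the matrix it moved from 17.7% to 52.8% against scopolamine, from 56.6% to 38.3% between the Aβ doses, and from 67.1% to 55.0% between the streptozotocin doses. The matrix also shifted the median of all genes, to -0.20 between Aβ and streptozotocin, 0.22 against scopolamine, -0.13 between the Aβ doses, and -0.11 between the streptozotocin doses. No paired analysis was possible because each group has 1 array. Signals near background limit the folds of Cst7 and Itgax, and 1 array per model limits every difference to these pools of RNA.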
